A study of Mus musculus with 11 samples.

Results

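Across the 8 histone mark peak lists of mouse muscle stem cells, 476 of 212879 called peaks lay in the keratin and keratin-associated gene clusters. These peaks were selected on their position, within windows that were chosen with earlier results of these data known. A peak was a member if it shared at least 1 bp with the type I keratin and Krtap window (chr11:99090000-100135000, 1045 kb, 260 peaks) or with the type II keratin window (chr15:101170000-101865000, 695 kb, 216 peaks), both in the mm9 coordinates of the lists. The called peaks themselves therefore chose the members, and their counts and scores are given as a description with no test. H3K4me3, H3K27me3 and H3K36me3 were profiled by chromatin immunoprecipitation and sequencing (ChIP-seq) in satellite cells, the resident stem cells of skeletal muscle.

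All cells came from hindlimb muscle of male C57BL/6 mice and were sorted as VCAM+/CD31-/CD45-/Sca1-. Young quiescent satellite cells (young QSCs) and old quiescent satellite cells (old QSCs) were taken from uninjured mice of 2 to 3 and 22 to 24 months. Activated satellite cells (young ASCs) were from mice of 2 to 3 months. The sample labels describe them as young QSCs plated for 3 days on extracellular matrix in F10 medium with horse serum, whereas the study's text describes activation by injury. Sorted cells were collected until there were enough for a reaction, so 1 library may hold cells of several mice. Each mark and state had 1 library, H3K36me3 was not profiled in old QSCs, and the 3 input libraries are not analysed here. With 1 library in each group no difference between states could be tested. The lists held between 11658 and 42880 peaks, the read depth behind them is unknown, and no marker gene of satellite cells was checked because gene positions in mm9 were not used.

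Keratins are the intermediate filament proteins of epithelia, and each filament pairs a type I with a type II keratin. Keratin-associated proteins (Krtap) cross-link hair keratins in the hair shaft. Both families are genes of epithelia and their appendages, lineages foreign to muscle stem cells. H3K4me3 marks gene starts that are active or held ready, H3K27me3 is laid down by Polycomb complexes at repressed genes, H3K36me3 follows transcription through gene bodies, and a start with both H3K4me3 and H3K27me3 is called bivalent.

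The RefSeq gene table of GRCm38.p6 was used only for gene names, their order and the other genes lying between them. In that table the chromosome 11 cluster ran from Krt222 to Krt42 with 50 keratin and Krtap genes. It began with Krt222, Krt24 and the inner root sheath keratins Krt25 to Krt28, passed Krt10 of the differentiated epidermis and Krt12 of the cornea, and reached the 23 Krtap genes after Krt39 and Krt40. Beyond the Krtap genes came the hair keratins Krt33a to Krt36, then Krt13 and Krt15, then Krt19 of simple epithelia, and at the far end Krt14 of the basal epidermis with Krt16, Krt17 and Krt42. The chromosome 15 cluster held 27 keratin genes from Krt80 to Krt18, among them Krt74, which the table lists as a transcribed pseudogene. It began with Krt80 and Krt7 of simple epithelia and the hair keratins Krt81 to Krt87. It passed Krt75, Krt6b, Krt6a and the basal keratin Krt5, and continued with the inner root sheath genes Krt71 to Krt74. Krt2, Krt1, Krt77, Krt76, Krt4, Krt79 and Krt78 followed, and it closed with Krt8 and the type I gene Krt18, the keratin pair of simple epithelia. Between the outermost of these genes the table lists 26 other genes on chromosome 11, 15 of them protein-coding, and 13 on chromosome 15, 1 of them protein-coding, so a peak in a window need not belong to a keratin gene. No peak was assigned to a gene, since the table and the lists use different builds.

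Promoter sequences (the 250 bases before the transcription start) were found for 57 of these 77 genes. They are shown to let a reader see how unlike the promoters of the clusters are, since H3K4me3 and H3K27me3 are known to prefer CG-rich starts. The 4 printed are a promoter with the fewest CG dinucleotides in each family, the first in gene order where several tie, and the keratin promoter with the most. They run 5′ to 3′ along the gene's own strand, from RefSeq on GRCm38.p6, with CG and TATAAA in capitals. Krt7 lies on the plus strand and Krt90 on the minus strand of chromosome 15, and Krt33b and Krtap3-2 lie on the minus strand of chromosome 11.
Krt7: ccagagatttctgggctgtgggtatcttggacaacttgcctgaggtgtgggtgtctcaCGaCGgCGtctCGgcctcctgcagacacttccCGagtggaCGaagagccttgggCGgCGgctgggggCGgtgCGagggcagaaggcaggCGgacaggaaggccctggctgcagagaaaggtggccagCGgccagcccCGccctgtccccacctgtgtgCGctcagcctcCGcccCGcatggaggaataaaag
Krt90: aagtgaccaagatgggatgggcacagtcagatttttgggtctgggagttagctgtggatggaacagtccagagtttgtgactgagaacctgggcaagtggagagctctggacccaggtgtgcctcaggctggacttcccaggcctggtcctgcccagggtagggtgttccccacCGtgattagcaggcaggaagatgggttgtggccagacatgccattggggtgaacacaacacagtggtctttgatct
Krt33b: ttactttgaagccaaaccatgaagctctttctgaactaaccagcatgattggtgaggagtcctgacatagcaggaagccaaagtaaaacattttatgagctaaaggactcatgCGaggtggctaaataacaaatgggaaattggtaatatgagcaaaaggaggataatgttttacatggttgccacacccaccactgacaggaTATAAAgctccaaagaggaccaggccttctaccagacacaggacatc
Krtap3-2: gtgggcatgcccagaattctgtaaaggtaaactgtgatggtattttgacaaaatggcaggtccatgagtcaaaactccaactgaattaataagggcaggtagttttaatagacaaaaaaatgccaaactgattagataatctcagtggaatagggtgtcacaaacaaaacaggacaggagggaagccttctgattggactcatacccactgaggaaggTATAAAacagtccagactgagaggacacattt

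CG dinucleotides were scarce in the Krtap promoters, with a median of 1 and a range of 0 to 4 over 21 promoters, and 8 of them (38.1%) held none. The median was 4 over the 21 type I promoters of chromosome 11 (1 to 8) and 3.5 over the 16 keratin promoters of chromosome 15 (1 to 16). The latter include the type I gene Krt18. Over all 32851 promoters of the table the median was 6, and 7.87% held none. The richest were those of Krt7 with 16 CG and Krt18 with 12, both keratins of simple epithelia, whereas Krt8, the partner of Krt18, had 3. The letters TATAAA, searched on the gene's strand, occurred in 20 of 21 Krtap promoters (95.2%) and 12 of 21 type I promoters of chromosome 11 (57.1%). They occurred in 3 of 16 keratin promoters of chromosome 15 (18.8%), beside 7.59% of all promoters. Searched on both strands, they occurred in 95.2%, 57.1%, 31.2% and 12.4%. Krtap3-3 was the Krtap promoter without them. These counts describe the sequences and were not related to the peaks.

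H3K27me3 peaks of ASCs were the most numerous members. The ASC list held 235 in the clusters, against 42 in young QSCs and 68 in old QSCs. They covered 299 kb in ASCs, 61.6 kb in young QSCs and 54.9 kb in old QSCs, which is 17.2%, 3.54% and 3.15% of the windows. The same lists covered 1.85%, 0.809% and 0.639% of the whole genome. The clusters thus lay above the whole list in all 3 states, by 9.29 times in ASCs, 4.38 times in young QSCs and 4.94 times in old QSCs. In young QSCs this was 1.56 times in the type I and 8.61 times in the type II window. Equally long regions on both sides of the type I and type II windows also lay above the whole list. Their ratios were 4.33 and 3.74 in ASCs, 5.42 and 3.53 in young QSCs, and 2.89 and 3.28 in old QSCs. Since the windows were chosen with earlier results known, all these ratios are a description only. The ASC list was also longer as a whole, with 3.29 times as many peaks as the young QSC list, and in the clusters it had 5.60 times as many. With as many top-scoring peaks taken from each list as the smallest list of the mark held, 80 ASC peaks remained in the clusters over 168 kb. With a score of at least 100, the counts were 139 in ASCs, 18 in young QSCs and 31 in old QSCs. The score is the peak caller's -10 log10 of the p-value, with many peaks tied at 3100 and a highest value of 3233. It depends on read depth, so a cutoff of 100 need not be equally strict in each list.

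**Figure D1:**
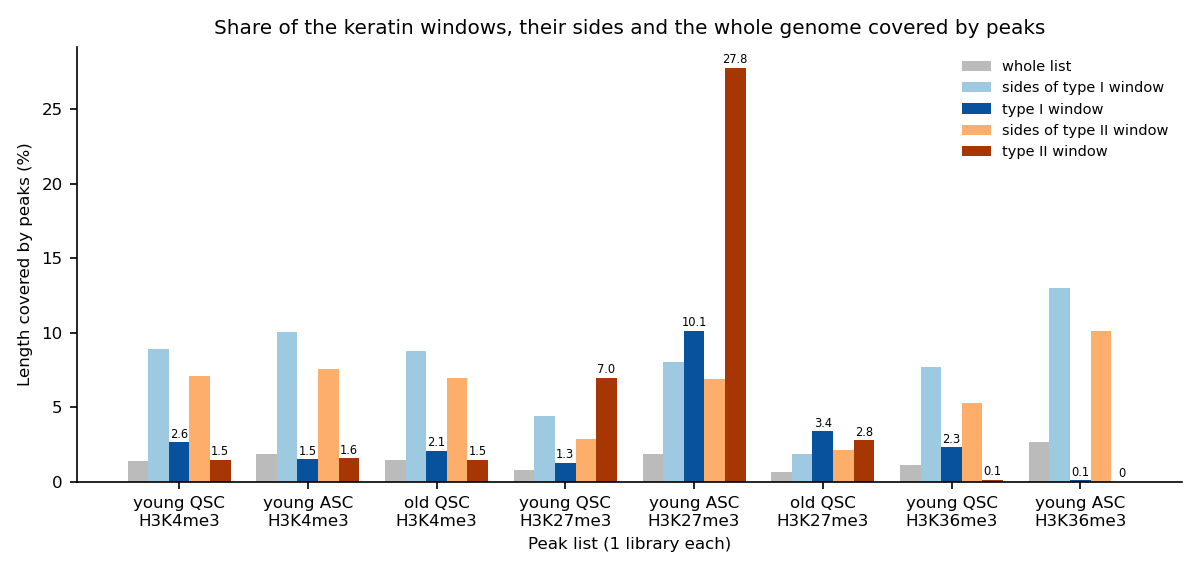
Percent of length covered by the peaks of each list (vertical axis, from 0) in the whole genome, the type I and type II windows, and the equally long regions on both sides of each window. ASC H3K27me3 reached 27.8% of the type II and 10.1% of the type I window, while both H3K36me3 lists covered less of the windows than of their sides. Each bar is 1 library and has no error bar.

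The type II window carried more of the ASC H3K27me3 than the type I window. It held 131 ASC peaks over 193 kb (27.8% of the window), and the type I window held 104 over 106 kb (10.1%). The equally long regions on both sides were covered to 6.92% and 8.01%. In young QSCs the type II window was covered to 6.97% and the type I window to 1.26%, below the 4.38% of its sides. In old QSCs the order was the other way around, with 3.40% of the type I and 2.78% of the type II window.

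Between young and old QSCs the order of the counts was opposite in the 2 windows. The type I window held 13 H3K27me3 peaks in young and 44 in old QSCs (13.2 and 35.6 kb covered). Of these, 1 young and 21 old peaks lay in the row of narrow peaks described further on. Outside that row the counts were 12 in young and 23 in old QSCs. The type II window held 29 in young and 24 in old QSCs, but the covered length was 48.4 kb in young and 19.3 kb in old QSCs. Young peaks of the type II window were up to 5640 bp wide, whereas the widest old peak there was 1314 bp. Over the whole lists young peaks were wider too, with a median of 1228 bp beside 838 bp in old QSCs. Whether these differences exceed the spread between animals cannot be told with 1 library each.

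**Figure D2:**
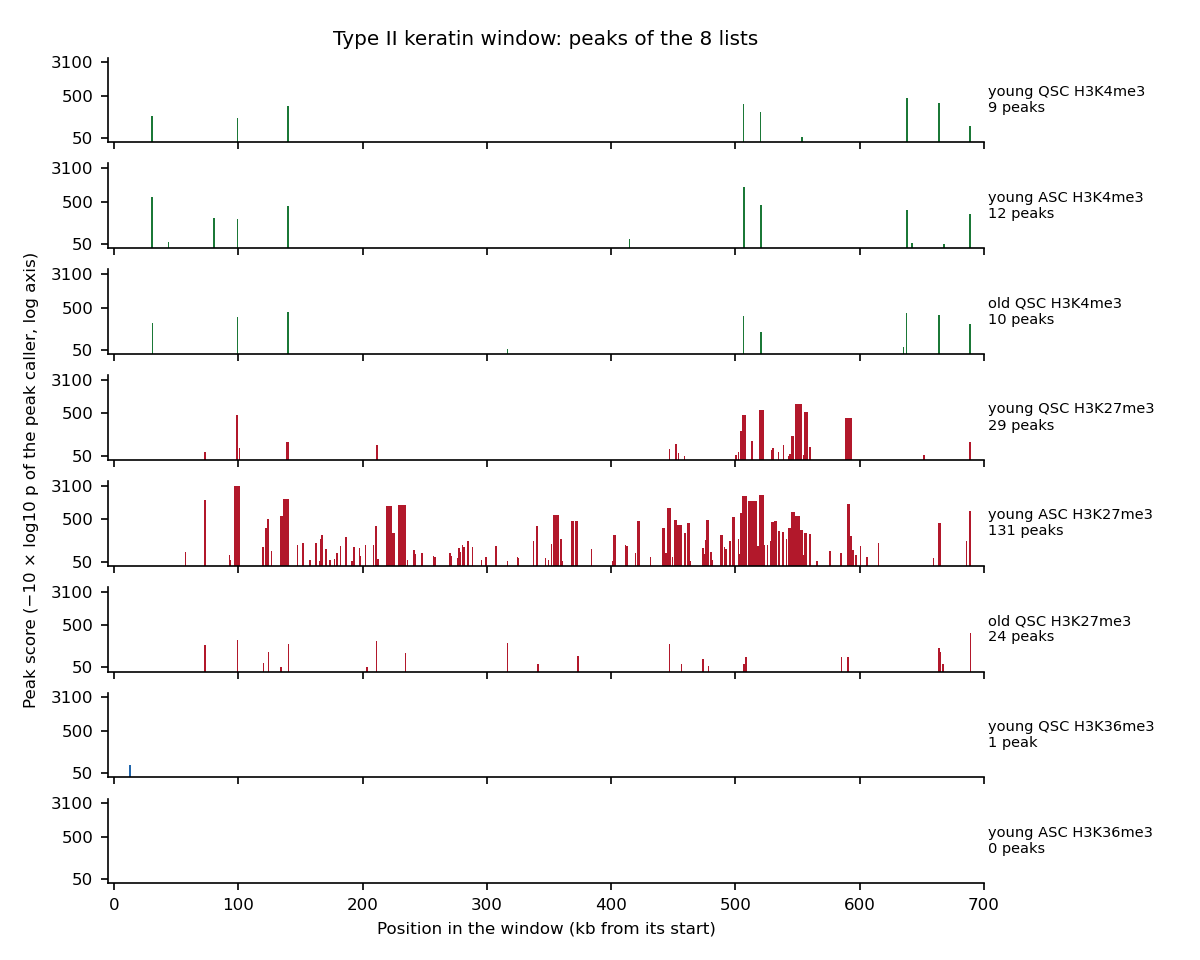
Peaks of the 8 lists along the type II window (horizontal axis, kb from the window's start) with their score (vertical log axis). Bars span each peak, the narrowest being widened to stay visible. ASC H3K27me3 has 131 peaks that cover 27.8% of the window, young QSC H3K27me3 gathers between 500 and 600 kb, and H3K36me3 has 1 young QSC peak and no ASC peak.

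H3K27me3 of ASCs and young QSCs in the type II window was densest 500 to 550 kb from its start (chr15:101670000-101720000). There 18 ASC peaks covered 77.0%, 13 young QSC peaks covered 44.0% and 2 old QSC peaks covered 2.68%. Old QSC H3K27me3 was densest 650 to 695 kb from the start, where it covered 7.30%. In ASCs, peaks less than 1 kb apart joined into a run of 8 peaks over 22166 bp (chr15:101671681-101693846) and another of 8 peaks over 19549 bp (chr15:101707739-101727287). The longest young QSC run had 4 peaks over 11094 bp (chr15:101712063-101723156) and lay within the second ASC run. It contained the highest-scoring young QSC H3K27me3 peak of the clusters (chr15:101718116-101723156, score 823), which had no old QSC peak. The longest old QSC run had 2 peaks over 2294 bp (chr15:101676230-101678523), inside the first ASC run.

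Other wide H3K27me3 sites differed between the lists, each in its own way. At chr15:101398027-101405019, the widest ASC peak of the clusters (6993 bp, score 1072) faced no young QSC peak and an old QSC peak of 777 bp (score 108). At chr15:101680185-101687025, an ASC peak of 6841 bp (score 1381) faced a young QSC peak of 1587 bp (score 109) and no old QSC peak. At chr15:101758142-101763781 the young QSC peak was the widest of its list in the clusters, at 5640 bp (score 388), with ASC peaks over 4091 bp and an old QSC peak of 905 bp.

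In the type I window H3K27me3 stayed in shorter runs, of at most 7156 bp in ASCs (5 peaks, chr11:99206593-99213748), 2626 bp in young QSCs and 3227 bp in old QSCs. The highest ASC scores lay toward the far end of the window. The peak at chr11:100004504-100007553 scored 2424 and was matched by a young QSC peak of 1556 bp (score 284) and an old QSC peak of 982 bp (score 140). The peak at chr11:99853575-99856422 scored 1655, with scores of 238 in young and 160 in old QSCs. Both places had H3K27me3 in all 3 states.

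Merging the overlapping H3K27me3 peaks of the 3 states gave 244 sites, 114 in the type I and 130 in the type II window. Of these, 155 (63.5%, 95% Wilson interval 57.3 to 69.3, counting error only) had a peak in ASCs alone, beside 51.4% over the genome. Another 45 (18.4%, 14.1 to 23.8) were shared by ASCs and old QSCs alone, beside 11.3%, and 16 (6.56%, 4.08 to 10.4) by young QSCs and ASCs alone, beside 8.25%. Of the 45, 34 were type I sites (29.8% of 114, 22.2 to 38.8) and 11 were type II sites (8.46% of 130, 4.79 to 14.5). Many of the 34 lay in the row of narrow peaks described further on. Young and old QSCs shared 0 sites without ASCs, beside 0.331%. All 3 states had a peak at 14 sites (5.74%, interval 3.45 to 9.40), close to the 6.84% over the genome. Those 14 carried higher ASC scores, between 264 and 3100 with a median of 1029, than the 155 ASC-only sites, whose scores ran from 51.0 to 1005 with a median of 92.6. Young QSCs alone had a peak at 7 sites (2.87%, interval 1.40 to 5.80), beside 5.99% over the genome, with scores up to 198. Old QSCs alone also had 7 (2.87%), beside 15.9%, with scores up to 146.

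Counted per peak, 35 of 42 young QSC H3K27me3 peaks (83.3%, interval 69.4 to 91.7) had an ASC counterpart, beside 74.3% of the whole list, and 13 of 42 (31.0%, 19.1 to 46.0) had an old QSC counterpart, beside 31.8%. Both intervals hold the whole-list share. In the other direction, 35 of 235 ASC peaks (14.9%, 10.9 to 20.0) met a young QSC peak, beside 22.6%. Of the old QSC peaks, 13 of 68 (19.1%, 11.5 to 30.0) met a young QSC peak, beside 26.1%, and 61 of 68 (89.7%, 80.2 to 94.9) met an ASC peak, beside 56.4%. The interval of the last share lies above the whole-list share and that of the ASC peaks below it. That of the old QSC peaks with young QSCs holds it. All these intervals count neighbouring peaks as independent, so their position is no test. ASC H3K27me3 peaks themselves covered 17.2% of the windows beside 1.85% of the genome, and the part of this in the 89.7% was not tested.

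**Figure D3:**
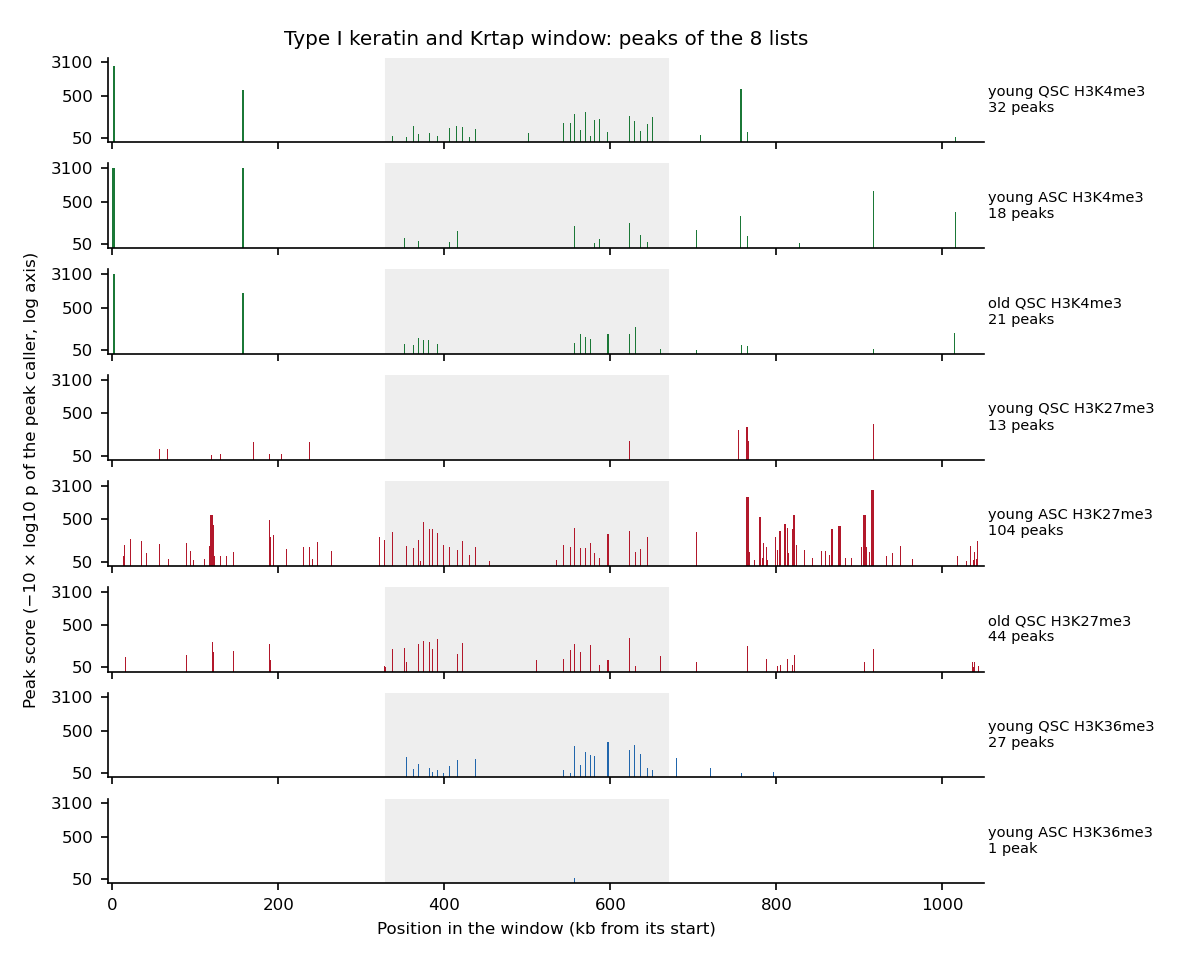
Peaks of the 8 lists along the type I and Krtap window (horizontal axis, kb from the window's start) with their score (vertical log axis). Bars span each peak, the narrowest being widened to stay visible. In the shaded stretch, 330 to 670 kb from the start, low peaks of all 3 marks stand in a row, with 26 young QSC H3K4me3 and 23 young QSC H3K36me3 peaks but 1 young QSC H3K27me3 peak.

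H3K4me3 peaks covered less of the clusters than of the regions around them. The lists held 41 peaks in young QSCs, 30 in ASCs and 31 in old QSCs, covering 2.18%, 1.52% and 1.83% of the windows, beside 1.42%, 1.86% and 1.48% of the genome. The regions on both sides were covered to between 6.93% and 10.1%. The peaks were weak within their lists, with median scores of 99.6, 118 and 103 beside 587, 342 and 718 for the whole lists, and narrow, with median widths of 805, 696 and 950 bp beside 1362, 1150 and 1453 bp. A score of at least 100 was reached by 20, 17 and 16 of them. With equal numbers of top-scoring peaks, 17 of the 30 ASC peaks remained.

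**Figure D4:**
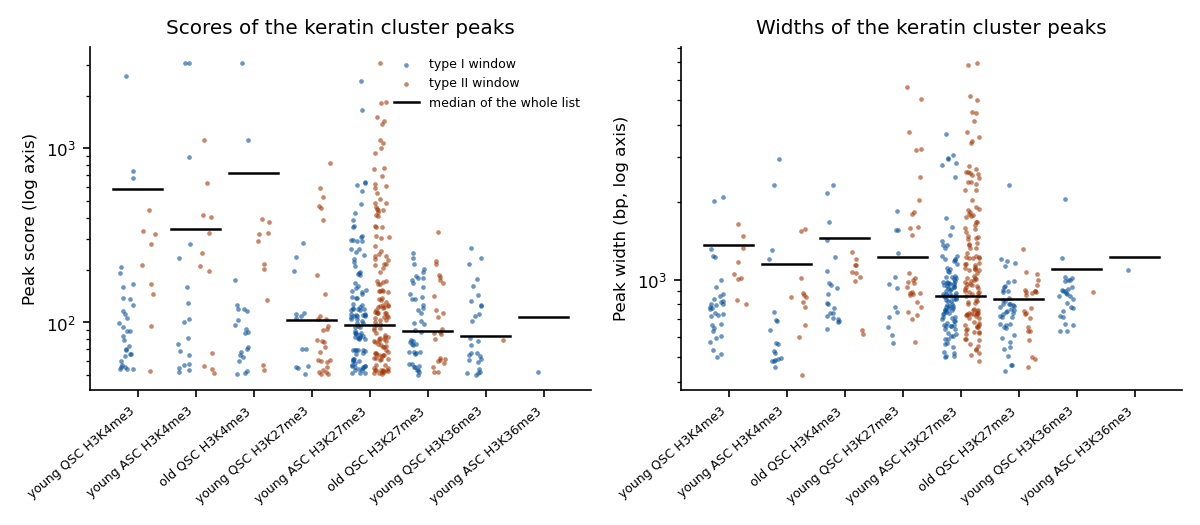
Score (left) and width in bp (right), both on log axes, of every member peak of the 8 lists, in blue for the type I and in brown for the type II window. Black lines are the medians of the whole lists. Most H3K4me3 peaks of the clusters lie below their list's medians, whereas the H3K27me3 peaks spread around theirs.

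The H3K4me3 peaks of the 3 states merged into 54 sites, 38 in the type I and 16 in the type II window. Of these, 15 (27.8%, interval 17.6 to 40.9) had a peak in all 3 states, beside 42.4% over the genome. A further 11 (20.4%, interval 11.8 to 32.9) were seen in young QSCs alone, beside 8.31% over the genome. ASCs alone had 6 (11.1%, 5.19 to 22.2), beside 30.6%, and old QSCs alone had 4 (7.41%, 2.92 to 17.6), beside 9.06%. Of the young QSC peaks, 21 of 41 (51.2%, 36.5 to 65.7) had an ASC counterpart, beside 78.6% of the whole list, and 24 of 41 (58.5%, 43.4 to 72.2) an old QSC counterpart, beside 80.5%. In the other direction, 21 of 30 ASC peaks (70.0%, 52.1 to 83.3) met a young QSC peak, beside 58.7%, as did 24 of 31 old QSC peaks (77.4%, 60.2 to 88.6), beside 80.5%. The 20 young QSC peaks without an ASC counterpart had a median score of 74.5 and the 21 with one a median of 146. The lower shares of young QSC peaks came from the type I window (14 and 16 of 32), whereas 7 and 8 of 9 type II peaks had counterparts. Of those 32 peaks, 26 lay in the row of narrow peaks described further on and 6 elsewhere in the window. Most of the 26 lacked an ASC counterpart, and most lacked an old QSC counterpart. Of the 6 elsewhere, only the peak at chr11:99797500-99798218 lacked them. The low shares thus largely describe the row and not the rest of the type I window. Most of the 11 sites seen in young QSCs alone lay in the row as well.

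The 15 sites seen in all 3 states fell into 6 without H3K27me3, 6 with H3K27me3 in all 3 states, and 3 with H3K27me3 in 2. Of the 6 without H3K27me3, the strongest lay at the very start of the type I window, at chr11:99089969-99092948, and reached across its border. Its scores were 2591 in young QSCs and 3100 in both ASCs and old QSCs. The next lay at chr11:99246411-99248738 and scored 679 in young QSCs, 3100 in ASCs and 1117 in old QSCs. In the type II window, chr15:101199453-101201223 scored 165, 631 and 216, and chr15:101807003-101808542 scored 444, 325 and 377. The last pair were chr11:99846138-99848165, with 740, 234 and 64.7 and a young QSC H3K36me3 peak of score 50.3, and chr11:100104206-100105086, with 54.1, 284 and 125. These 6 places carried no H3K27me3 peak in any state.

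**Figure D5:**
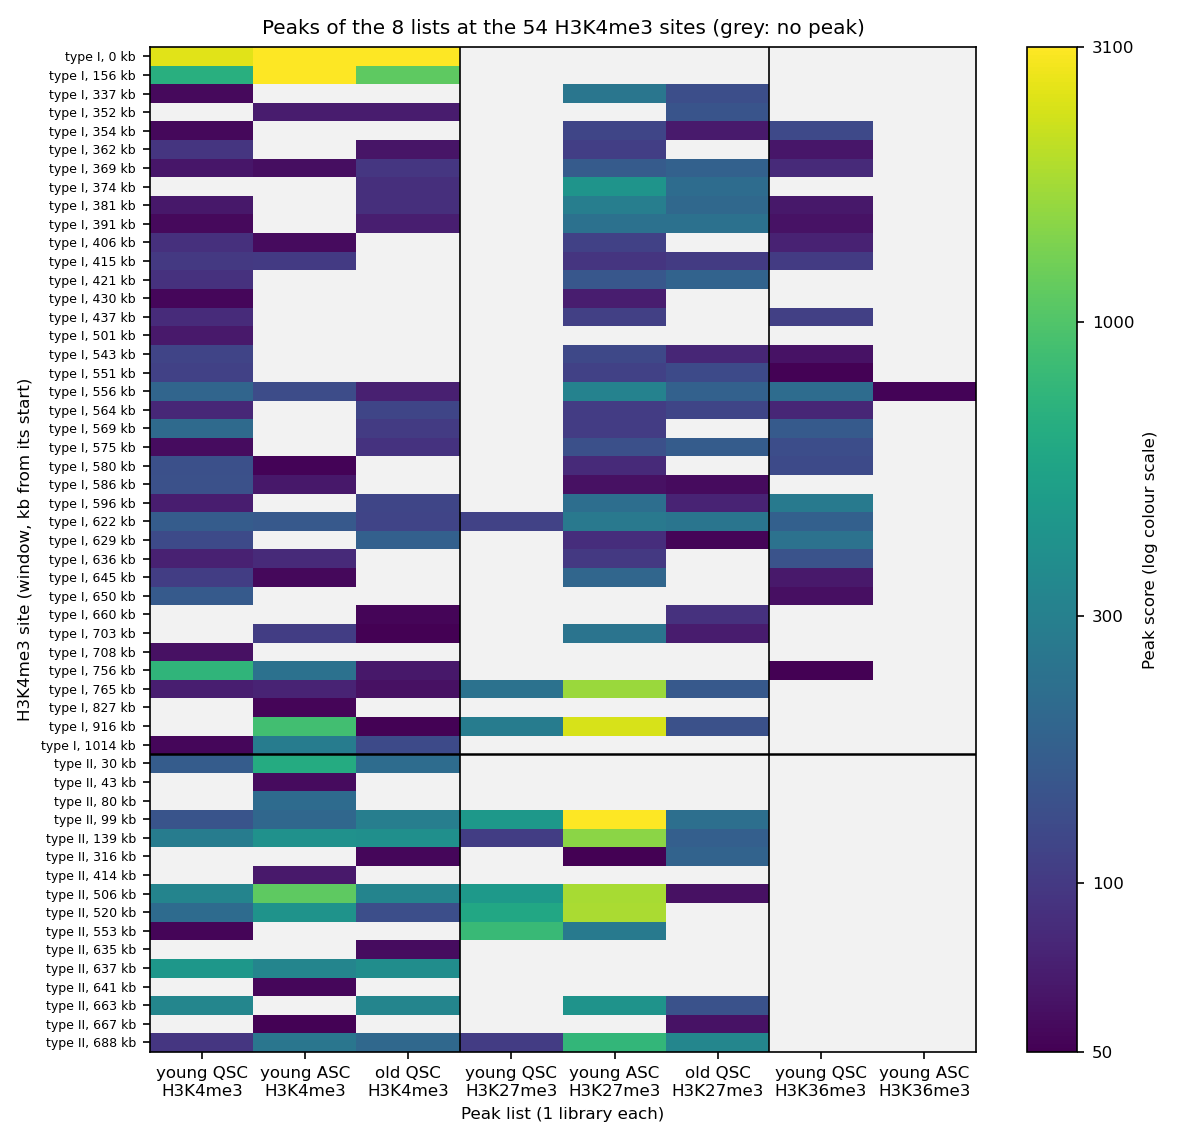
Score of the overlapping peak of each list (columns) at the 54 H3K4me3 sites, ordered by position in the type I and then the type II window (kb from the window's start). Colour is on a log scale and grey means no peak. 4 type II and 2 type I sites have both H3K4me3 and H3K27me3 in all 3 states, whereas most type I sites between 337 and 660 kb lack H3K27me3 in young QSCs and have it in ASCs.

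Sites with both marks in all 3 states were 4 in the type II and 2 in the type I window. At chr15:101268629-101269878 the H3K4me3 scores were 146, 198 and 292 in young QSCs, ASCs and old QSCs, and the H3K27me3 scores were 452, 3100 and 225. At chr15:101309287-101310470 H3K4me3 scored 283, 402 and 392, and H3K27me3 scored 105, 1511 and 174. At chr15:101675956-101677084 H3K4me3 scored 323, 1112 and 321, and H3K27me3 scored 469, 1808 and 59.8. The fourth type II site, chr15:101858189-101859247 near the window's far border, had H3K4me3 scores of 95.7, 251 and 203 and H3K27me3 scores of 104, 770 and 331. In the type I window, chr11:99854740-99855459 had H3K4me3 scores of only 70.8, 75.7 and 60.4 with the H3K27me3 already given, and chr11:99711987-99713068 belonged to the row of narrow peaks described further on.

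Some sites had a peak of one mark in only some of the lists. At chr15:101689564-101690974 H3K4me3 was called in all 3 states (213, 414 and 135), and H3K27me3 in young QSCs (594) and ASCs (1851) but not in old QSCs. At chr15:101833027-101834209 H3K4me3 was called in young (335) and old QSCs (326) and not in ASCs, where H3K27me3 scored 416, and old QSCs had H3K27me3 as well (141). At chr11:100006273-100007478 H3K4me3 scored 887 in ASCs and 51.4 in old QSCs and was not called in young QSCs, under H3K27me3 in all 3 states. At chr15:101722823-101723654 H3K4me3 was called in young QSCs alone, at a score of 52.8 near the caller's lower limit, beside H3K27me3 in young QSCs and ASCs. An absent peak says that no peak passed the caller's threshold, not that the mark was absent.

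Overlap of the 2 marks within a state differed between the windows in young QSCs. There 8 of 41 H3K4me3 peaks (19.5%, interval 10.2 to 34.0) met an H3K27me3 peak, beside 14.0% of the whole list, and these were 6 of 9 in the type II but 2 of 32 in the type I window. In ASCs it was 17 of 30 (56.7%, 39.2 to 72.6), beside 16.9%, and in old QSCs 21 of 31 (67.7%, 50.1 to 81.4), beside 28.6%. In both lists the type I window held most of these peaks, 12 of 18 in ASCs and 15 of 21 in old QSCs, with 5 of 12 and 6 of 10 in the type II window. Of the type I ones, 9 in ASCs and 12 in old QSCs lay in the row of narrow peaks described further on, and outside it the overlap was 3 of 8 in ASCs and 3 of 7 in old QSCs. With a score of at least 100, the old QSC share was 37.5% of 16. Counted from H3K27me3, 8 of 42 young QSC peaks (19.0%) met H3K4me3, beside 27.7%, 17 of 235 ASC peaks (7.23%), beside 13.9%, and 21 of 68 old QSC peaks (30.9%), beside 41.3%.

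Many of the type I peaks stood in a row of narrow, low-scoring peaks 330 to 670 kb from the window's start (chr11:99420000-99760000, limits set after the values were seen). This 340 kb held 26 of 32 young QSC H3K4me3 peaks of the window, 10 of 18 in ASCs and 14 of 21 in old QSCs. It held 23 of 27 young QSC H3K36me3 peaks, the only ASC H3K36me3 peak, 30 of 104 ASC and 21 of 44 old QSC H3K27me3 peaks, and 1 of 13 young QSC H3K27me3 peaks. Median widths of the lists there lay between 522 and 1092 bp, and the highest score in it was 425.

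Peaks of different marks fell on the same places in this row. The 8 lists merged there into 35 sites, typically 950 bp wide (median). Neighbouring centres lay 6.97 kb apart at the median, and 25 of the 34 distances lay between 4 and 10 kb. Peaks of all 3 marks were found at 20 of the 35 sites (57.1%), beside 1.94% of the 118948 sites of the genome. They were found at 0 of the other 90 type I sites and 0 of the 138 type II sites. The limits of the row were set with these peaks in view. The contrast with the other sites is thus partly built in and is a description only. H3K4me3 was called at 29 of the 35, H3K27me3 at 33 and H3K36me3 at 23. The site at chr11:99711987-99713068 had peaks in 7 lists, with H3K4me3 scores of 166, 159 and 116 and H3K27me3 scores of 112, 264 and 251 in young QSCs, ASCs and old QSCs, and 178 for young QSC H3K36me3. The site at chr11:99646254-99647501 also had peaks in 7 lists and lacked young QSC H3K27me3. As background, H3K36me3 usually forms wide blocks over the bodies of transcribed genes, and H3K27me3 lies at silent genes. The level of the input libraries at these places is not analysed here, and their part in the result was not tested.

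Outside the row the type I window held 6, 8 and 7 H3K4me3 peaks in young QSCs, ASCs and old QSCs, with median scores of 375, 259 and 64.7. It held 12, 74 and 23 H3K27me3 peaks, so that ASCs led without the row as well. Young QSC H3K36me3 kept 4 peaks and ASC H3K36me3 none.

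H3K36me3 covered little of the clusters outside that row. The young QSC list held 28 peaks over 25.3 kb, of which 27 lay in the type I window, and the ASC list held 1 peak of 1092 bp (chr11:99646396-99647487, score 51.9). The type II window had 1 young QSC peak (chr15:101182234-101183129, score 79.0) near its start and no ASC peak. ASC H3K36me3 covered 0.0628% of the windows beside 2.65% of the genome and 13.0% and 10.1% of the regions on both sides, although the ASC list as a whole was 2.10 times as long as the young QSC list. The young QSC list covered 1.45% of the windows beside 1.10% of the genome, and 7.71% and 5.31% of the sides.

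The young QSC H3K36me3 peaks of the clusters mostly lay on peaks of other lists, but 23 of the 28 stood in the row of narrow peaks. All 22 sites of the windows with both H3K36me3 and H3K27me3 in any state lay in that row, and 0 elsewhere. The shares below thus largely describe the row, whose limits were set after the values were seen. Of the 28, 22 (78.6%, interval 60.5 to 89.8) overlapped young QSC H3K4me3, beside 15.4%, and 22 overlapped ASC H3K27me3, beside 11.0%. Only 1 of 28 (3.57%, 0.633 to 17.7) overlapped ASC H3K36me3, beside 59.2%. In 4 or more of the 8 lists a peak was present at 20 of the 28 (71.4%), beside 13.4% of the whole list. With a score of at least 100, 12 of the 28 remained.

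Peaks just inside and just outside the windows were as follows. The strongest type I H3K4me3 site crossed the border itself, and the nearest young QSC H3K4me3 peak before it, at chr11:98901129-98903569, scored 2569. Beyond the far border the nearest ASC H3K27me3 peak scored 52.8 (chr11:100139331-100139910) and the last one inside scored 151 (chr11:100132122-100133103). Before the type II window the nearest young QSC H3K4me3 peak scored 2377 (chr15:101113788-101115568) and the first one inside scored 165. The number of members in each of the 8 lists was the same when a peak had to have its centre in a window.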

How the data were processed

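The peak lists of the 8 ChIP libraries were analysed as deposited. Per the labels, the authors aligned reads with Bowtie to mm9, and the peak names are those of MACS, run for each library against an input. Versions, read numbers and duplicate filters are not given in the sources used here. The deposited score of a peak is the caller's -10 log10 of the p-value, from 50 upward, and start and end are positions in bp (other). Scores rise with sequencing depth, which is unknown. Scores of several lists are printed side by side as a description and do not measure a difference between states. The same holds for counts of peaks with a score of at least 100.

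From these lists the number, width, score and covered length of peaks in both windows were computed, with the genome taken as the largest position on each chromosome (2641 Mb). Overlaps of at least 1 bp were counted in pandas 2.3.3 and numpy 2.4.6 under Python 3.11.15, with functions tested on simulated data. Wilson 95% intervals came from scipy 1.17.1 and cover counting error only, and figures from matplotlib 3.10.9. Sites are unions of overlapping peaks. No test was made, since each mark and state had 1 library. Named peaks were the H3K4me3 sites present in 2 or more states or with another mark, and the 3 highest-scoring and 3 widest peaks of each list and window, the most telling of which are given in the text. Runs, bins of 50 kb and the row of narrow peaks were chosen after the values were seen. The windows and gene lists were chosen with earlier results of these data known.

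Alternatives were a score of at least 100, equal numbers of top-scoring peaks for all lists of a mark, 50% overlap of the shorter peak, merging of peaks less than 1 kb apart, peak centres inside the windows, and each window alone. Gene names, their order and promoters came from RefSeq tables of GRCm38.p6. Their coordinates served only for the order and the count of other genes between the outermost keratin genes, and were not set against the peaks. The input libraries and the study's supplementary tables were not used here.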

Additional observations from a re-analysis of the deposited data

How the results depend on the processing

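Of 201 values recomputed under 7 alternatives, 139 were called close to the reported ones and 62 moved, 37 of these because only 1 window was counted. Counts and lengths were called close within a fixed ratio, and shares within the Wilson interval of the reported share. Sizeable changes could therefore be called close. None was called moved with 50% overlap of the shorter peak, merging of peaks less than 1 kb apart, or peak centres inside the windows. Merging still took ASC H3K27me3 from 235 to 160 peaks and young QSC H3K27me3 from 42 to 31. Equal numbers of top-scoring peaks took old QSC H3K27me3 from 68 to 46 peaks, also called close. With a score of at least 100, the member counts were 20 (young QSC), 17 (ASC) and 16 (old QSC) for H3K4me3, 18, 139 and 31 for H3K27me3, and 12 (young QSC) and 0 (ASC) for H3K36me3. The lengths that moved were 23.1 kb (young QSC) and 19.6 kb (old QSC) for H3K4me3, 40.3 and 26.7 kb for H3K27me3, and 12.0 and 0 kb (young QSC, ASC) for H3K36me3. The share of old QSC H3K4me3 peaks on H3K27me3 was 37.5%, and 28 H3K4me3 sites were left, 9 in all 3 states and 3 with both marks in all of them. With equal numbers of top-scoring peaks, ASCs had 17 H3K4me3 peaks, 80 H3K27me3 peaks over 168 kb and 0 H3K36me3 peaks (0 kb), 34.1% of young QSC H3K4me3 peaks met ASCs, and 62.5% of ASC H3K27me3 peaks lacked a young QSC peak.

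In the type I window alone, ASC H3K4me3 had 18 peaks (15.6 kb), and H3K27me3 had 13 (13.2 kb), 104 (106 kb) and 44 peaks (35.6 kb) in young QSCs, ASCs and old QSCs. Of young QSC H3K27me3 peaks 61.5% met ASCs, 93.3% of ASC and 90.9% of old QSC H3K27me3 peaks lacked a young QSC peak, 6.25% of young QSC H3K4me3 peaks met H3K27me3, 8 sites had H3K4me3 in 3 states and 2 had both marks in 3. In the type II window alone, H3K4me3 had 9 (10.3 kb), 12 (10.9 kb) and 10 peaks (10.1 kb), H3K27me3 had 131 in ASCs (193 kb) and 24 in old QSCs (19.3 kb), and H3K36me3 had 1 (0.896 kb) in young QSCs and 0 (0 kb) in ASCs. Of young QSC H3K4me3 peaks 77.8% met ASCs, 88.9% met old QSCs and 66.7% met H3K27me3. Of young QSC H3K27me3 peaks 93.1% met ASCs, and 78.6% of ASC and 62.5% of old QSC H3K27me3 peaks lacked a young QSC peak. Of its 16 H3K4me3 sites, 7 were in 3 states and 2 of these lacked H3K27me3. The cause of these shifts was not tested. Read depth is unknown, and with 1 library per group neither spread between animals nor a paired analysis could be had.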
